A study of Mus musculus with 72 samples.

Results

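The comparison described here is the effect of deleting the conserved noncoding element E5 on the hypothalamus of mice that had gone 72 h without food. It rests on the 8 libraries whose counts were deposited together as fasted E5 samples, 4 from E5 knockouts (KO) and 4 from wild types (WT), of 72 libraries in the whole series. The series knocked out 5 conserved elements linked to hibernation, named E1 to E5, and sequenced total RNA of the adult hypothalamus from fed and fasted B6 mice. The KO animals carried the E5 deletion and the WT animals did not. Both groups were adult B6 mice, both were fasted for 72 h with water, and both were taken from the hypothalamus. The fed samples carry the same protocol line on fasting as the fasted ones, and their treatment label, which says fed, was followed. The labels give no age beyond adult, no sex, no position or sequence of E5 and no statement that each library is a separate animal, so p-values measure the spread between libraries, which may be technical. The only gene that the deposited tables name is Fto, and the deleted element itself is not a gene, so the counts hold no check of the genotype. Libraries are numbered KO 1 to KO 4 and WT 1 to WT 4. All 8 carry one batch label, in which WT libraries have numbers 1 to 4 and KO libraries have numbers 5 to 8, so order within the batch and genotype cannot be told apart. The 8 fed E5 libraries (4 KO, 4 WT) carry another batch label and are used only beside the fasted values.

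A long fast is a strong signal to the hypothalamus, where neurons that make Agrp and Npy drive feeding and those that make Pomc restrain it. Fasting also raises glucocorticoid hormone, which acts on genes such as Tsc22d3 in many tissues. Ribosomal protein genes encode the protein part of the ribosome. Their messages begin with a run of pyrimidines, the TOP motif, through which nutrient signalling by mTORC1 controls their translation. Immediate early genes such as Fos are transcribed within minutes of neuronal firing and serve as markers of recent activity. Noncoding elements such as E5 may act on genes close by or far away, which is why the whole transcriptome and the genes around Fto are both given.

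Levels below are CPM, counts relative to library size after scaling by the TMM factors of the fit. Differences are log2 fold changes of KO over WT with their standard error (SE), so a positive value means higher in KO. Depth was 23083506 to 27754804 counts per library in KO and 23525433 to 30330400 in WT. Hypothalamic peptides were present throughout: the orexin gene Hcrt was at 41.3 to 72.2 CPM in KO and 18.2 to 63.3 CPM in WT, and Avp, which encodes vasopressin, at 112 to 268 CPM in KO and 119 to 192 CPM in WT.

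3 of the 8 libraries stood apart in transcripts of neighbouring tissue. The 8 anterior pituitary genes that passed the filter on low counts summed to 20626.8 CPM in KO 3, against 382 to 491 CPM in the other KO libraries. In WT they summed to 5233 CPM in WT 3 and to 350.2 to 573 CPM in the others. The hormone genes led this signal: Prl, the prolactin gene, stood at 13729.5 CPM in KO 3 and 0.266, 58.05 and 8.03 CPM in KO 1, KO 2 and KO 4, and at 3206 CPM in WT 3 and 16.02, 0.128 and 85.3 CPM in WT 1, WT 2 and WT 4. Gh, the growth hormone gene, was at 0, 52.1, 4934 and 9.59 CPM in KO and 18.1, 0, 1297 and 106 CPM in WT. KO 2, KO 4, WT 1 and WT 4 therefore also held hormone transcripts, at far lower levels than KO 3 and WT 3. Cga, which encodes the shared subunit of pituitary glycoprotein hormones, was at 84.5 CPM in KO 3 and 0.0760 to 0.330 CPM in the other KO libraries, against 0.535 to 4.98 CPM in WT. How much neighbouring tissue each library held was not measured. The 17 choroid plexus genes tested summed to 256 to 293 CPM in all 4 KO libraries, against 4971 CPM in WT 1 and 239 to 285 CPM in the other WT libraries. Ttr, the transthyretin gene that defines choroid plexus, was at 0.722, 8.38, 1.40 and 1.099 CPM in KO, against 3069.8 CPM in WT 1 and 1.02, 1.55 and 1.30 CPM in WT 2, WT 3 and WT 4. Kl, another choroid plexus gene, was at 8.36 to 11.8 CPM in KO and 46.6 CPM in WT 1, with 10.9 to 11.8 CPM in the other WT libraries. Clic6, which choroid plexus shares with other epithelia, was at 20.9 to 26.4 CPM in KO and 19.3 to 45.1 CPM in WT, with WT 1 the highest, and Folr1 did not pass the filter. In the fed E5 libraries Gh and Prl did not pass the filter. The 6 genes of the pituitary list that did summed to 283 to 321 CPM in KO and 311 to 342 CPM in WT. This sum lacks the hormone genes that led the fasted signal, so it is not on the same scale. List medians, and gene estimates that moved by over 1.5 times, are below also given without KO 3, WT 1 and WT 3, which leaves 3 KO and 2 WT libraries that are not free of hormone transcripts. Smaller traces of other tissues were in KO libraries: Alb, the albumin gene of liver, was at 29.9 CPM in KO 2 and 0.380 to 0.502 CPM in the other KO libraries, against 0.299 to 0.724 CPM in WT. The red blood cell genes summed to 665 CPM in KO 4 and 276 to 396 CPM in the other KO libraries, against 192 to 411 CPM in WT.

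**Figure D1:**
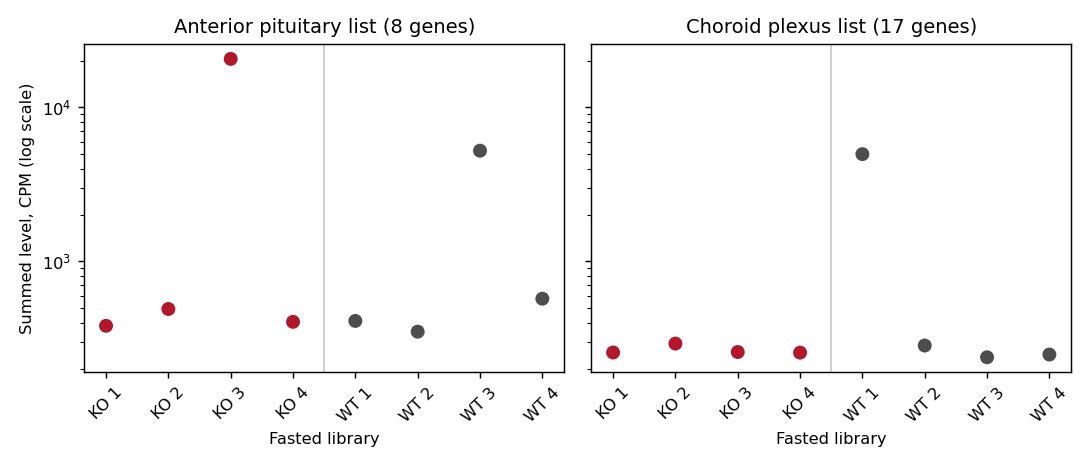
Summed level in CPM (log axis) of the 8 anterior pituitary and 17 choroid plexus genes in each fasted library, KO left of WT. KO 3 and WT 3 stand apart for pituitary, at 20626.8 and 5233 CPM, and WT 1 stands apart for choroid plexus, at 4971 CPM.

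No gene passed the test between fasted KO and fasted WT. Of 18569 genes tested by edgeR's quasi-likelihood test, 0 (0%) had a Benjamini-Hochberg adjusted p under 0.05, and the smallest adjusted p was 0.667. An unadjusted p under 0.05 was reached by 1360 genes (7.32%), of which 831 (4.48% of those tested) were lower and 529 (2.85%) higher in KO. Estimates were negative for 49% and positive for 51% of all genes tested, with a median log2 of 0.0036. The count at an unadjusted p under 0.05 moved with single libraries: it was 2667 without WT 4, 802 without WT 3 and 888 without KO 1, and 639 (3.39%) of 18873 without KO 3, WT 1 and WT 3. DESeq2 on the same genes gave 21 calls among the 14224 genes with an adjusted p (0.148%), of which 17 (0.12%) were lower and 4 (0.0281%) higher in KO. Of those, 11 have a gene symbol that is not a predicted model: Rps27, Fos, Rps28, Rpl37, Rps29, Cep76, Atpif1 and Rnu2-10 were lower, and Hcn2, Plekhh1 and Cntn2 were higher in KO. The other 10, of which 9 were lower, carry the names of predicted models, clones or pseudogenes. Every gene given with its levels below had an edgeR adjusted p of 0.667 to 0.917 in the fasted comparison, so the values that follow describe these libraries and none is a call by that test.

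Ribosomal protein genes stood at the head of the lower side: 5 of the 12 genes named there by smallest edgeR p encode ribosomal proteins. Rps27, which encodes a protein of the small ribosomal subunit, was at 77.3, 80.3, 82.8 and 73.5 CPM in KO, against 104, 104, 115 and 96.8 CPM in WT. Each KO library lay below each WT library, a pattern that 1.84% of all genes tested showed in this direction. Choosing genes by smallest p in the same libraries favours it. The difference was -0.42 ± 0.07 (SE; 95% interval -0.58 to -0.26), and the DESeq2 adjusted p was 0.00407. Rps28, also of the small subunit, was at 59.6, 62.0, 59.7 and 57.3 CPM in KO and 77.9, 90.0, 87.8 and 69.1 CPM in WT, a difference of -0.45 ± 0.09. The KO libraries lay close together, and the WT libraries were more spread, with WT 4 the lowest of them but above every KO library. Rpl37, of the large subunit, was at 78.8, 89.1, 81.7 and 79.2 CPM in KO and 106, 114, 125 and 96.0 CPM in WT. Its difference was -0.42 ± 0.09, with no overlap of the groups. Rps29 was at 88.1, 97.1, 81.7 and 83.4 CPM in KO and 120.2, 135, 123 and 100.2 CPM in WT, a difference of -0.45 ± 0.09 with no overlap. Rpl38 had 63.3, 74.2, 69.0 and 61.4 CPM in KO and 91.7, 90.6, 96.9 and 72.1 CPM in WT, so that WT 4 was below KO 2, and a difference of -0.39 ± 0.10.

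Most of the sequences below come from genes that lead the lower side of the comparison, but Rpl31 is not among those named there. Not every ribosomal protein gene of low p is included, and Rps29 has no RefSeq promoter entry. The starts of 5 ribosomal protein genes of low p that have such an entry, and that of Fos, are shown. Each is read 5′ to 3′ on the gene's strand, from 60 bases before to 30 bases after RefSeq's annotated start in build GRCm38.p6, which is mm10. Capitals mark the searched motifs in the bases before the start and, at the start, a pyrimidine run as defined below. Nothing is marked in Rpl31. Its CCGGAAG lies after the start, and the pyrimidines that span its start do not reach 5 bases past it.
Rps27, chr3:90213619-90213708, minus strand: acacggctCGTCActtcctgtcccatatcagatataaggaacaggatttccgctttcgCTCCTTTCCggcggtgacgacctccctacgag
Rps28, chr17:33824533-33824622, minus strand: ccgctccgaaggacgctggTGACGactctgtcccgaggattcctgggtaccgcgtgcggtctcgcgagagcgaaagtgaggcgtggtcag
Rpl37, chr15:5116553-5116642, plus strand: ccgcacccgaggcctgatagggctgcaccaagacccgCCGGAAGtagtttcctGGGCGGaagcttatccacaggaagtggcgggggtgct
Rpl38, chr11:114668520-114668609, plus strand: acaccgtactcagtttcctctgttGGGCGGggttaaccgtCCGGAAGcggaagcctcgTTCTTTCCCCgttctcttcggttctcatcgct
Rpl31, chr1:39367791-39367880, plus strand: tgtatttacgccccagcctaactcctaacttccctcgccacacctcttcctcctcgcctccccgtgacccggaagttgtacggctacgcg
Fos, chr12:85473830-85473919, plus strand: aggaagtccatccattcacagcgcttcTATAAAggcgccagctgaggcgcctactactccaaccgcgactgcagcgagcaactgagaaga

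The motifs searched, on both strands of the 250 bases before each start, were TGACG (the core of the cAMP response element), CCGGAAG (ETS factors), GGGCGG (the GC box), AAGATGGC (YY1) and TATAAA (the TATA box); none of them is contained in another. A pyrimidine run means at least 5 bases of C or T in a row within the first 10 bases after the start. It was found at 35.3% of 68 starts of 58 ribosomal protein genes, against 16.6% of all 32851 starts in the table. Rps27 has a run of 9 pyrimidines that spans the start and Rpl38 a run of 10. CCGGAAG was before 27.9% of the ribosomal protein starts and 6.91% of all starts, and TGACG before 38.2% and 17.8%. GGGCGG was before 48.5% of ribosomal protein starts and 32.7% of all starts, AAGATGGC before 5.88% and 1.56%, and TATAAA before 4.41% and 12.4%. In Fos the TATA box lies in the stretch shown. A match is a string of letters in a window, and what binds there was not measured. The windows rest on annotated starts, and where the messages of these libraries begin was not measured either.

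The list of cytosolic ribosomal protein genes leaned one way as a whole. All 72 members tested, of 79 matched, had a negative estimate, against 49% of all genes tested. Of the 72, 50 had an unadjusted edgeR p under 0.05 on the lower side, where the share over all genes was 4.48%. DESeq2 called 4 of the 72, against 0.148% of all genes with a DESeq2 adjusted p. In 8 of the 72, against 1.84% of all genes tested, each KO library lay below each WT library. Among them were Rps27, Rps28, Rpl37, Rps29 and Rpl21. Estimates ran from -0.45 for Rps29 to -0.06 for Rplp2, with a list median of -0.25 and a median of 0.0036 over all genes. These messages are counted together in one preparation, so the members are not independent of each other. Summed over its members, the level was 7697, 9235, 8483 and 8157 CPM in KO, against 9780.0, 10763, 11065 and 8366 CPM in WT. The groups overlap, since KO 2 and KO 3 lie above WT 4. Without KO 3, WT 1 and WT 3 the median was -0.20, with 71 of 72 members negative, where 52.1% of all genes were. Without WT 4 it was -0.33 and without WT 3 it was -0.20. With each library's trend on transcript length taken out the median was -0.23, and with the trend on GC content taken out it was -0.26. The 4501 other protein-coding genes whose transcripts fall in the same length range had a median of -0.02, and 55.1% of them were negative. Ribosomal protein genes have many processed pseudogenes with nearly the same sequence, and how reads that match several copies were counted is not stated. Of 518 processed pseudogenes tested, of any parent gene, 388 were negative, with a median of -0.23; the copies of ribosomal protein genes were not counted apart.

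**Figure D2:**
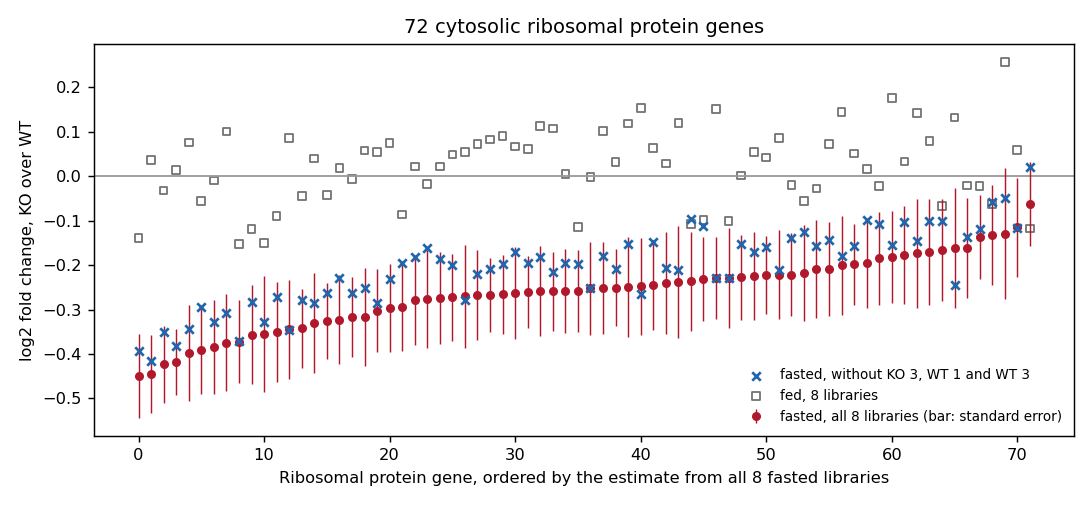
Log2 fold change of KO over WT (vertical axis) of the 72 cytosolic ribosomal protein genes, ordered by their fasted estimate, from all 8 fasted libraries (filled circles with SE), from the 5 left without KO 3, WT 1 and WT 3 (crosses) and from the 8 fed libraries (open squares). All 72 filled circles and 71 of 72 crosses lie below 0, while 45 of the 72 squares lie above it, a share that rests on fed KO 4.

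Most other genes of protein synthesis had negative estimates too. With all 8 libraries all 24 translation factors and other genes with a TOP motif were negative, with a median of -0.16, and 6 had an unadjusted p under 0.05 on the lower side, where 4.48% of all genes did. Without the 3 libraries 19 of 24 were negative and the median was -0.10. Eif3k, a subunit of the initiation factor eIF3, was at 46.5, 54.5, 48.9 and 50.4 CPM in KO and 64.4, 69.2, 61.6 and 53.1 CPM in WT. WT 4 again was the lowest of the WT libraries and lay under KO 2, and the difference was -0.31 ± 0.09. Naca, which shields nascent chains on the ribosome, averaged 117 ± 11.4 CPM in KO and 142 ± 12.4 CPM in WT (SD, n = 4 each). Gas5, a noncoding host of small nucleolar RNAs with a TOP motif, averaged 72.7 ± 7.11 CPM in KO and 93.0 ± 17.9 CPM in WT, with a difference of -0.36 ± 0.12 that was -0.23 without WT 3. Of 72 mitochondrial ribosomal protein genes, 63 were negative and 9 positive, with a median of -0.13 and 12 at an unadjusted p under 0.05 on the lower side (4.48% of all genes). Without the 3 libraries 56 were negative and 16 positive, with a median of -0.10. Mrps36 was at 6.35, 7.76, 8.46 and 7.82 CPM in KO and 10.1, 12.8, 9.998 and 8.78 CPM in WT, a difference of -0.45 ± 0.14 with no overlap. Mrpl50 averaged 22.9 ± 2.05 CPM in KO and 28.2 ± 3.29 CPM in WT, also without overlap.

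Nuclear genes for subunits of the respiratory chain, which makes ATP in mitochondria, were negative in 73 of 74 cases, with a median of -0.23 and 31 at an unadjusted p under 0.05 on the lower side, against 4.48% of all genes. Without the 3 libraries 66 of 74 were negative and the median was -0.14. Ndufa6, a subunit of complex I, was at 29.96, 33.2, 25.8 and 29.8 CPM in KO and 37.6, 43.0, 42.4 and 33.6 CPM in WT. No KO library reached a WT library, and the difference was -0.40 ± 0.10. Ndufa12, also of complex I, averaged 40.7 ± 3.70 CPM in KO and 50.1 ± 2.54 CPM in WT, again with no overlap. Ndufa4 averaged 59.4 ± 8.37 CPM in KO and 78.0 ± 11.1 CPM in WT, and Cox7b of complex IV averaged 56.5 ± 7.54 CPM in KO and 70.6 ± 7.29 CPM in WT; in both the groups overlap. The estimate of Cox7b was -0.32, and -0.21 without the 3 libraries. Atpif1, which encodes an inhibitor of the ATP synthase, was at 26.7, 28.5, 23.2 and 23.5 CPM in KO and 33.8, 36.1, 34.6 and 30.4 CPM in WT. Its difference was -0.41 ± 0.09 with no overlap, and the DESeq2 adjusted p was 0.0483. The genes encoded in mitochondrial DNA are listed with 0 counts in every library and were not analysed here.

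In these lists the same KO library was the highest of its group and the same WT library the lowest, while the lowest KO and highest WT libraries differed between lists. The respiratory chain sum was 4847, 5785, 4358 and 4898 CPM in KO, against 5752, 6176, 5932 and 4864 CPM in WT, so KO 2 was again the highest KO library and WT 4 the lowest WT library. The median ribosomal protein gene stood at -0.25, 0.02, -0.13 and -0.18 log2 units from its mean over the 8 libraries in KO, and at 0.11, 0.24, 0.28 and -0.11 in WT. Depth was 24345673 counts in KO 2 and 26602261 counts in WT 4, inside the range of the other libraries, and its part in this order was not tested.

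Fos, the best known marker of recent neuronal firing, had the largest relative difference among the DESeq2 calls with a gene symbol. Its level was 6.69, 7.02, 6.10 and 5.54 CPM in KO, against 11.98, 9.30, 11.8 and 9.16 CPM in WT. The highest KO library lay below the lowest WT library, and the difference was -0.74 ± 0.14 (95% interval -1.03 to -0.44), with a DESeq2 adjusted p of 0.00421. Without KO 3, WT 1 and WT 3 it was -0.52. Junb, which pairs with Fos in the AP-1 complex, was at 6.96, 6.94, 9.22 and 7.14 CPM in KO and 9.97, 9.26, 12.2 and 10.004 CPM in WT. KO 3 stood above the other KO libraries and just under the lowest WT library, and the difference was -0.45 ± 0.14. Nr4a1, an orphan nuclear receptor induced by activity, averaged 10.2 ± 0.588 CPM in KO and 13.1 ± 1.92 CPM in WT, a difference of -0.37 ± 0.12 with overlap that was -0.24 without the 3 libraries. Dusp5, a phosphatase that switches off ERK, was at 1.33, 1.20, 1.72 and 1.06 CPM in KO and 5.59, 1.66, 2.04 and 2.02 CPM in WT. Its difference of -1.10 ± 0.36 became -0.52 without WT 1 and -0.62 without the 3 libraries. Arc, a synaptic immediate early gene, had a positive estimate, with 6.62, 10.7, 8.11 and 6.80 CPM in KO and 6.97, 6.61, 7.06 and 6.41 CPM in WT, and 0.25 ± 0.16. KO 2 was highest for Arc, and without it the estimate was 0.08. Nr4a2 averaged 8.92 ± 3.86 CPM in KO and 6.60 ± 1.51 CPM in WT, with 0.43 ± 0.28 that was 0.20 without KO 3 and 0.67 without KO 4. Over the list of 39 immediate early genes 30 were negative and 9 positive, 8 had an unadjusted p under 0.05 on the lower side (4.48% of all genes), and the median was -0.17. That median was -0.06, with 24 of 39 negative, without the 3 libraries.

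On the higher side the 3 DESeq2 calls with a gene symbol had estimates of 0.29 to 0.33. The other call on that side, the antisense transcript C130021I20Rik, had a DESeq2 estimate of 1.43 and is outside the rule for named genes. Hcn2, which encodes a pacemaker channel opened by hyperpolarization, was at 105, 117, 98.7 and 109 CPM in KO, against 89.4, 78.9, 86.1 and 86.4 CPM in WT. Each KO library lay above each WT library, as it did for 1.72% of all genes tested. The difference was 0.33 ± 0.07 (95% interval 0.17 to 0.50), with a DESeq2 adjusted p of 0.0264. It was 0.42 without the 3 libraries, 0.29 without KO 2 and 0.26 with the trend on GC content taken out. Cntn2, a cell adhesion molecule of axons and of the junctions that flank nodes of Ranvier, was at 166, 169, 151 and 175 CPM in KO and 137, 132, 136 and 135 CPM in WT. The WT libraries lay close together and below every KO library, and the difference was 0.29 ± 0.07, with a DESeq2 adjusted p of 0.0247. Plekhh1, a gene of oligodendrocytes, was at 58.8, 64.6, 62.5 and 63.4 CPM in KO and 51.8, 44.4, 50.5 and 52.0 CPM in WT. Its difference was 0.33 ± 0.08, with a DESeq2 adjusted p of 0.0489. With the trend on GC content taken out the estimates of Cntn2 and Plekhh1 were 0.26 and 0.32.

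**Figure D3:**
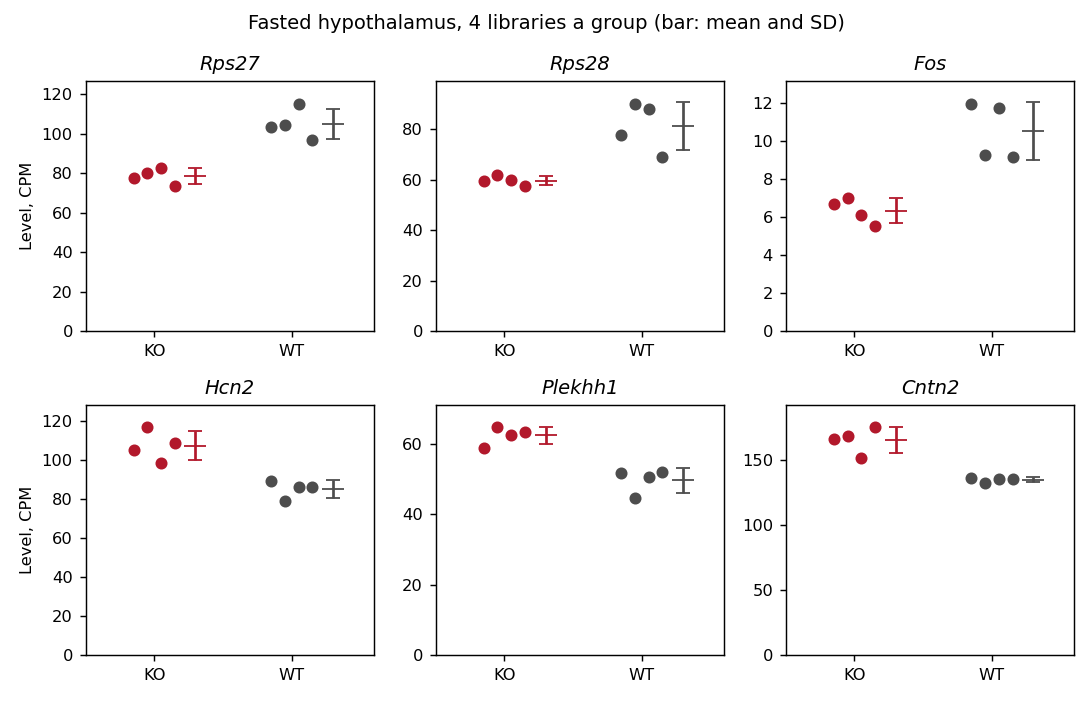
Level in CPM (linear axis from 0) of 6 of the genes called by DESeq2 in each fasted library, KO left of WT, with the mean and SD of each group beside the points. In Rps27, Rps28 and Fos all 4 KO libraries lie below all 4 WT libraries, and in Hcn2, Plekhh1 and Cntn2 all 4 lie above; edgeR's adjusted p was 0.667 for each.

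The remaining genes named on the higher side also had no overlap between the groups, which choosing genes by smallest p in these same libraries favours. Prima1, the membrane anchor of acetylcholinesterase, was at 8.90, 9.95, 8.18 and 9.09 CPM in KO and 7.20, 5.203, 6.33 and 5.73 CPM in WT, a difference of 0.56 ± 0.13. Hapln2, a link protein of the matrix at nodes of Ranvier, was at 18.4, 18.4, 16.7 and 17.2 CPM in KO and 14.1, 12.4, 15.6 and 11.5 CPM in WT, a difference of 0.40 ± 0.11. The lowest KO library of Hapln2 was KO 3 and the highest WT library was WT 3, and without the 3 libraries the estimate was 0.59. With the trend on GC content taken out the estimates of Prima1 and Hapln2 were 0.51 and 0.34. Creb5, a transcription factor of the CREB family, averaged 23.7 ± 1.36 CPM in KO and 18.2 ± 1.98 CPM in WT. Plxnb3, a semaphorin receptor on the X chromosome, averaged 24.5 ± 2.33 CPM in KO and 18.6 ± 1.91 CPM in WT. Ntng2, a netrin-like axon guidance protein, averaged 14.6 ± 1.03 CPM in KO and 11.1 ± 0.896 CPM in WT. Coro6, of the actin-binding coronins, averaged 20.9 ± 2.12 CPM in KO and 15.6 ± 2.10 CPM in WT. The estimates of these 4 genes lay between 0.38 and 0.42, and between 0.35 and 0.40 with the trend on GC content taken out. Ankrd24, Vwa5b2 and Arhgap33 had estimates of 0.28, 0.32 and 0.28, each with an SE of 0.08 or 0.09. With the GC trend taken out they were 0.23, 0.27 and 0.22.

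Among mature oligodendrocyte genes 14 of 20 were positive and 6 negative, with a median of 0.18. Without the 3 libraries 19 of 20 were positive, again with a median of 0.18, and in fed mice 17 of 20 with 0.14. 6 of them had an unadjusted p under 0.05, all higher in KO, where the share over all genes was 2.85%. Besides Plekhh1 and Hapln2 these included Fa2h, which makes hydroxylated myelin lipids, at 27.6, 29.4, 28.5 and 26.2 CPM in KO and 22.8, 24.7, 22.9 and 24.02 CPM in WT. Its groups did not overlap, and the difference was 0.24 ± 0.08. The myelin genes Mal and Cldn11 had negative estimates, that of Cldn11 turning to 0.01 without the 3 libraries. Mal was at 118, 130.5, 96.3 and 116 CPM in KO and 114, 136, 138 and 135 CPM in WT, with a difference of -0.18 that was -0.11 without KO 3, and Cldn11 averaged 84.0 ± 7.89 CPM in KO and 88.3 ± 9.16 CPM in WT. Summed over the list, the level was 3290, 3625, 2864 and 3227 CPM in KO, against 3094, 3105, 3330 and 3224 CPM in WT (means 3251 ± 312 and 3188 ± 111, SD). In whole tissue, fewer cells of a type and less RNA per cell cannot be told apart.

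Astrocyte genes leaned negative, with 15 of 19 below 0, 4 above it and a median of -0.18. Without the 3 libraries 11 of 19 were negative, where 52.1% of all genes were, and the median was -0.05. Summed over the list, the level was 5451, 5963, 4480 and 5294 CPM in KO, against 5702, 6069, 6161 and 5457 CPM in WT, with overlap. The 4 members described next are those of smallest p, and all have negative estimates. Gja1, the main astrocyte connexin, was at 171, 197, 147 and 172.3 CPM in KO and 214, 254, 249.8 and 197 CPM in WT. KO 2 and WT 4 were level at this rounding and the other libraries did not overlap, and the difference was -0.41 ± 0.11. Gjb6, another astrocyte connexin, averaged 76.0 ± 13.8 CPM in KO and 99.6 ± 12.9 CPM in WT. Slc1a3, which clears glutamate, averaged 526 ± 68.5 CPM in KO and 639.8 ± 57.97 CPM in WT, and Agt, the angiotensinogen gene, 241 ± 49.7 CPM in KO and 311 ± 41.2 CPM in WT. Without the 3 libraries the differences of Gjb6 and Agt, -0.39 and -0.37, were -0.23 and -0.22. In all 4 genes KO 3, the library with pituitary transcripts, was the lowest of the 8. Ependymal cilia genes were negative in 14 of 19 cases, with a median of -0.15, and -0.17 with 19 of 19 negative without the 3 libraries. Foxj1, the master regulator of motile cilia, was at 13.95, 20.1, 11.05 and 13.7 CPM in KO and 19.1, 23.3, 18.2 and 18.4 CPM in WT, a difference of -0.43 ± 0.16 with KO 2 above 3 of the WT libraries. Genes of meningeal and perivascular fibroblasts were negative in 15 of 16 cases, with a median of -0.43 that was -0.05 without the 3 libraries. Ptgds, the prostaglandin D synthase of meninges and oligodendrocytes, was at 315, 441.8, 155 and 512 CPM in KO and at 1288 CPM in WT 1, with 376, 540.3 and 671 CPM in the other WT libraries. Its difference of -1.01 ± 0.37 was -0.31 without the 3 libraries. WT 1, the library with choroid plexus transcripts, had the highest fibroblast sum, 1709 CPM, against 362 to 776 CPM in KO and 638 to 878 CPM in the other WT libraries.

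Genes that respond to glucocorticoids and fasting were negative in 18 of 20 cases, with a median of -0.29 (-0.22 without the 3 libraries). 7 of them had an unadjusted p under 0.05 on the lower side, against 4.48% of all genes. Tsc22d3, the leucine zipper gene GILZ, was at 80.2, 88.6, 95.7 and 94.8 CPM in KO and 95.3, 117, 162 and 122 CPM in WT. KO 3 lay just above WT 1, WT 3 was well above all others, and the difference was -0.47 ± 0.13. Sult1a1, a sulfotransferase, averaged 11.6 ± 1.75 CPM in KO and 18.02 ± 5.41 CPM in WT, with a difference of -0.64 ± 0.19 that was -0.33 without the 3 libraries. Mt1, the metallothionein gene, averaged 114 ± 15.1 CPM in KO and 149.6 ± 23.2 CPM in WT. Ddit4, an inhibitor of mTORC1 that rises with stress and fasting, was at 28.8, 29.8, 25.4 and 27.4 CPM in KO and 31.1, 25.9, 55.0 and 42.4 CPM in WT. Its WT libraries were widely spread, and the difference of -0.47 ± 0.18 was -0.25 without WT 3 and -0.25 without the 3 libraries. Pdk4, which spares glucose in fasting, averaged 9.83 ± 3.48 CPM in KO and 14.98 ± 6.47 CPM in WT, with KO 3 and WT 3 the highest of their groups, and its difference of -0.60 was -0.26 without WT 3. In the list of fat and ketone use, to which Pdk4 belongs, 19 of 27 genes were negative, with a median of -0.06 (-0.04 without the 3 libraries), and 3 had an unadjusted p under 0.05 on the lower side (4.48% of all genes).

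Of 30 feeding and neuroendocrine peptide genes 24 were negative and 6 positive, with a median of -0.19 (-0.14 without the 3 libraries), and 4 had an unadjusted p under 0.05 on the lower side (4.48% of all genes). Gal, which encodes galanin, was at 18.8, 25.8, 18.6 and 23.1 CPM in KO and 26.2, 39.8, 27.7 and 26.1 CPM in WT. KO 2 lay just below the lowest WT library, and the difference of -0.47 ± 0.15 was -0.31 without WT 2. Nts, the neurotensin gene, was at 13.3, 15.2, 12.7 and 9.30 CPM in KO and 17.3, 29.1, 19.7 and 12.7 CPM in WT. Its difference of -0.64 ± 0.22 was -0.39 without WT 2. Trh, which drives the thyroid axis, averaged 65.3 ± 14.4 CPM in KO and 84.6 ± 10.2 CPM in WT, with -0.38 ± 0.14 that was -0.24 without KO 3. Npy, the appetite-stimulating peptide of the arcuate nucleus, was at 19.7, 20.8, 8.82 and 27.1 CPM in KO and 18.8, 22.9, 46.2 and 36.5 CPM in WT. The libraries with pituitary transcripts were the lowest KO and the highest WT library for Npy, and the difference of -0.70 ± 0.31 was -0.40 without the 3 libraries. Agrp, made by the same neurons, was at 5.70, 4.996, 5.34 and 5.28 CPM in KO and 4.41, 4.56, 4.37 and 5.12 CPM in WT, with 0.21 ± 0.13 (0.14 without the 3 libraries). Hcrt and Avp were 0.38 ± 0.29 and 0.20 ± 0.22, with overlap in both. Single libraries set these: Hcrt was 0.13 without WT 2 and 0.60 without WT 4, Avp was -0.10 without KO 4 and 0.36 without KO 3, and without the 3 libraries they were 0.63 and 0.31. Pomc is expressed in pituitary as well as in arcuate neurons, and its 1318 CPM in KO 3 and 338 CPM in WT 3 set its estimate. In the other libraries it was at 13.6, 17.0 and 24.4 CPM in KO and 18.5, 33.1 and 28.3 CPM in WT. Of 31 receptors and signalling genes of energy balance 16 were negative and 15 positive, and 21 and 10 without the 3 libraries.

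Genes of protein quality control leaned negative by less. Of 24 heat shock chaperone genes 22 were negative, with a median of -0.13 (-0.12 without the 3 libraries) and 5 at an unadjusted p under 0.05 on the lower side, against 4.48% of all genes. Dnajb1, a co-chaperone of the 70 kDa heat shock proteins, was at 35.7, 40.6, 34.9 and 35.1 CPM in KO and 41.4, 42.4, 48.9 and 44.6 CPM in WT. Its groups did not overlap, and the difference was -0.28 ± 0.08. Hspa8, the constitutive chaperone and one of the most abundant messages here, averaged 1231 ± 175 CPM in KO and 1559 ± 181.4 CPM in WT, with -0.34 ± 0.12. Hspb8, a small heat shock protein, averaged 12.6 ± 1.92 CPM in KO and 17.2 ± 3.504 CPM in WT, and its difference of -0.45 ± 0.15 was -0.235 without the 3 libraries. Of 24 endoplasmic reticulum stress genes 18 were negative, with a median of -0.07 (-0.09 without the 3 libraries), and Hspa5, which encodes BiP, was at 220.1, 259, 285 and 233 CPM in KO and 260.1, 344, 315 and 232 CPM in WT, with -0.21 ± 0.13 that was -0.11 without WT 2. Of 23 amino acid stress genes under ATF4 20 were negative, with a median of -0.10 (-0.07 without the 3 libraries). Slc7a11, the cystine transporter, was at 70.0, 79.4, 71.5 and 69.4 CPM in KO and 89.6, 87.1, 84.8 and 82.9 CPM in WT, a difference of -0.25 ± 0.07 with no overlap. Rbm3, an RNA-binding protein induced by cold, was at 58.1, 61.9, 51.3 and 68.0 CPM in KO and 74.0, 76.6, 98.1 and 70.6 CPM in WT. The groups did not overlap, and the difference of -0.42 ± 0.11 was -0.23 without the 3 libraries.

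**Figure D4:**
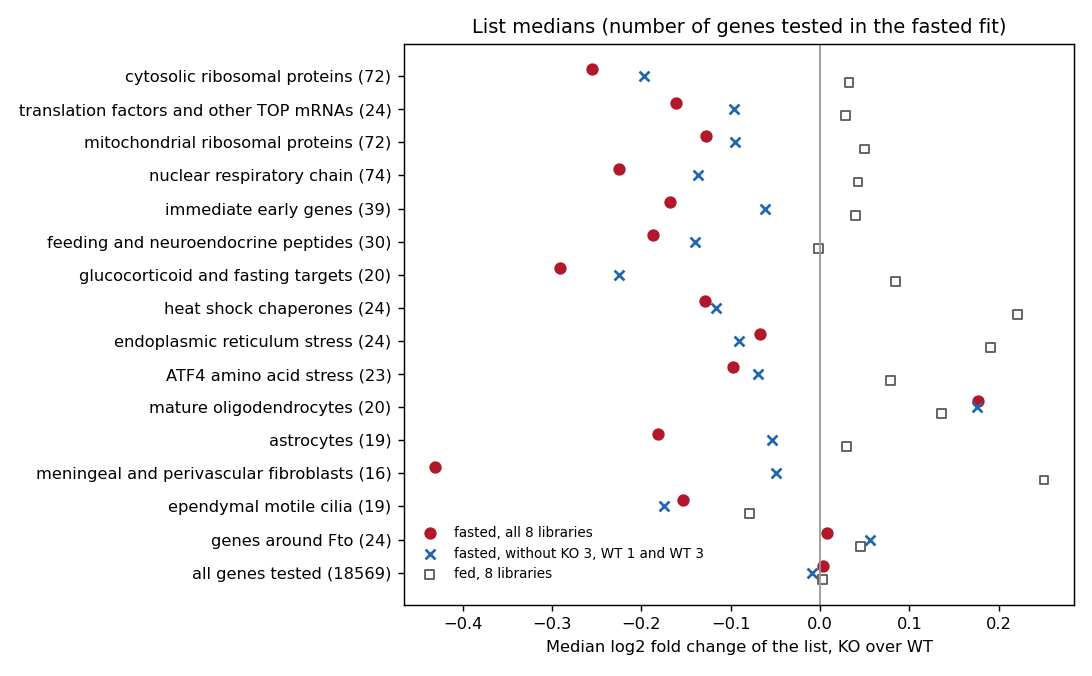
Median log2 fold change of KO over WT (horizontal axis) of 15 gene lists and of all genes tested, from all 8 fasted libraries (filled circles), without KO 3, WT 1 and WT 3 (crosses) and in the 8 fed libraries (open squares). The ribosomal protein median was -0.25, -0.20 and 0.03 and the fibroblast median -0.43, -0.05 and 0.25, while the medians of all genes lay near 0.

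The genes around Fto on chromosome 8 (build mm10) had 11 negative and 13 positive estimates among 24, with a median of 0.01. Without the 3 libraries 7 were negative and 17 positive, with a median of 0.06, and in fed mice 18 of 24 were positive. Fto, an RNA demethylase tied to body mass, was at 341, 295, 326 and 326 CPM in KO and 302, 269.8, 275 and 348 CPM in WT. The groups overlap, and the difference was 0.11 ± 0.10, with a 95% interval of -0.10 to 0.31. It was 0.05 without the 3 libraries and 0.19 without WT 4. Rpgrip1l, the cilium gene next to Fto, was at 45.7, 43.6, 50.7 and 43.2 CPM in KO and 45.7, 56.2, 53.6 and 50.1 CPM in WT, with -0.17 ± 0.09 (-0.27 without the 3 libraries). Irx5, a homeobox gene further along, was at 3.27, 3.26, 3.26 and 3.04 CPM in KO and 3.19, 2.13, 1.88 and 2.10 CPM in WT. WT 1 lay among the KO libraries and the other WT libraries below them, and the difference was 0.46 ± 0.19, or 0.59 without the 3 libraries. Irx3, the related gene often tied to Fto variants, was at 2.32, 2.19, 1.72 and 2.03 CPM in KO and 2.17, 1.58, 1.43 and 1.41 CPM in WT, with 0.32 ± 0.21 (0.54 without the 3 libraries and 0.49 without WT 1). Irx6 averaged 0.830 ± 0.235 CPM in KO and 0.731 ± 0.318 CPM in WT, with 0.16 ± 0.35 that was 0.52 without the 3 libraries. Herpud1, an endoplasmic reticulum stress gene that is in both lists, was the 1 gene of 24 in the locus list without overlap. Over all genes tested, 1.84% had each KO library below each WT library and 1.72% had each above. Herpud1 was at 48.0, 54.3, 51.9 and 48.8 CPM in KO and 61.0, 56.8, 69.4 and 59.4 CPM in WT, a difference of -0.28 ± 0.08. Nudt21 and Aktip were -0.27 ± 0.10 and -0.23 ± 0.09, with overlap in both, and Aktip was -0.14 without the 3 libraries.

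Other genes named on the lower side belong to no list. Cep76, a centriole protein, was at 5.44, 6.11, 5.77 and 5.58 CPM in KO and 9.01, 7.98, 9.39 and 7.75 CPM in WT, a difference of -0.58 ± 0.12 with no overlap and a DESeq2 adjusted p of 0.0247. Cnn3, an actin-binding calponin, averaged 44.2 ± 2.77 CPM in KO and 55.3 ± 4.15 CPM in WT, without overlap. Tex14, known from the germ line, averaged 25.5 ± 1.45 CPM in KO and 35.2 ± 5.55 CPM in WT, without overlap. Samd3 averaged 3.20 ± 0.989 CPM in KO and 5.75 ± 0.934 CPM in WT, and its groups overlap. Rnu2-10, a copy of the U2 small nuclear RNA of the spliceosome, was at 38.1, 45.95, 35.8 and 36.2 CPM in KO and 54.2, 82.5, 60.2 and 47.3 CPM in WT, with -0.65 ± 0.15. U2 copies are nearly identical, so reads cannot be assigned to one of them with confidence, and 19 of 20 small nuclear RNA genes tested were negative, with a median of -0.54. Transcripts of 200 bases or less had a median of -0.37 over 24 genes, those of 400 to 600 bases -0.05 over 921 genes and those of over 5000 bases 0.03 over 543 genes (mean log2 CPM of at least 1). By GC content the median was -0.06 at 38 to 42% and 0.07 above 58%. Beyond the fits with these trends taken out, their part in the single-gene results was not tested. Malat1, a long RNA kept in the nucleus, averaged 4916 ± 345 CPM in KO and 4343 ± 203.8 CPM in WT, with 0.18 ± 0.08.

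The remaining lists follow with their medians from all 8 libraries and, after them, without the 3 libraries. Striatal neuron genes were positive in 14 of 16 cases with a median of 0.14, and in 11 of 16 with 0.24 without the 3 libraries, and 2 had an unadjusted p under 0.05 on the higher side (2.85% of all genes). Drd2, the dopamine receptor gene, was at 18.3, 21.1, 41.6 and 15.002 CPM in KO and 15.3, 13.6, 18.6 and 15.1 CPM in WT, so KO 3 was the highest library. The difference of Drd2, 0.62 ± 0.25, was 0.21 without KO 3 and 0.33 without the 3 libraries. Cortical and hippocampal neuron genes had medians of 0.0060 and 0.18, with 9 and 14 of 17 positive. Thalamic neuron genes had medians of 0.05 and 0.03, hypothalamic neuron genes 0.03 and 0.05, and synaptic genes -0.0034 and 0.07. Microglial genes had medians of 0.03 and -0.0040, endothelial genes 0.09 and 0.07, pericyte and smooth muscle genes -0.02 and -0.07, oligodendrocyte precursor genes 0.08 and 0.0071, and tanycyte genes 0.09 and 0.02. Clock genes had medians of 0.0089 and 0.07, cholesterol synthesis genes -0.05 and 0.05, and interferon-stimulated genes 0.07 and -0.08, so the sign turned in the cholesterol and interferon lists. In these 3 lists 0, 1 and 0 members had an unadjusted p under 0.05. Histone genes had medians of -0.09 and -0.04, and hosts of small nucleolar RNAs and nuclear RNAs -0.11 and -0.08. Cold-inducible RNA-binding proteins and kinases had medians of -0.09 and -0.06; among them Clk1, a splicing kinase, averaged 96.7 ± 10.8 CPM in KO and 119 ± 18.8 CPM in WT, with -0.30 ± 0.11 that was -0.20 without WT 3. Fat genes (3 tested) had medians of 0.28 and 0.41 and skeletal muscle genes (7 tested) 0.0061 and 0.14.

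In the fed E5 libraries edgeR called 0 of 18206 genes (0%) between KO and WT, and 514 (2.82%) had an unadjusted p under 0.05. Across 14526 genes the fasted and fed estimates had the same sign in 39.2%, with a Pearson correlation of -0.20 and a Spearman correlation of -0.26; the fasted and fed comparisons share no library, and feeding state and batch cannot be told apart. The difference between the fasted and the fed effect, tested as an interaction over all 16 libraries, was called for 0 of 19319 genes (0%), with 1150 (5.95%) at an unadjusted p under 0.05 and a smallest edgeR adjusted p of 0.216. That smallest value belonged to Dnajb1. In fed mice it was at 36.3, 38.2, 32.4 and 37.0 CPM in KO and 25.9, 29.9, 25.9 and 27.3 CPM in WT, higher in every KO library, against the lower values of KO in fasted mice. The fasted minus fed difference was -0.69 ± 0.12, and DESeq2 gave an adjusted p of 0.00014. Tsc22d3 was at 70.4, 75.4, 72.9 and 66.6 CPM in fed KO and 53.7, 56.8, 55.2 and 53.98 CPM in fed WT. It too was without overlap and higher in KO, a fed difference of 0.38 ± 0.07. It was the only gene that DESeq2 called in fed mice, with an adjusted p of 0.00531. Its fasted minus fed difference was -0.86 ± 0.16, with an edgeR adjusted p of 0.537 and a DESeq2 adjusted p of 0.00883. Without KO 3, WT 1 and WT 3 of the fasted groups, edgeR called that difference for Tsc22d3 alone, with an adjusted p of 0.0423.

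**Figure D5:**
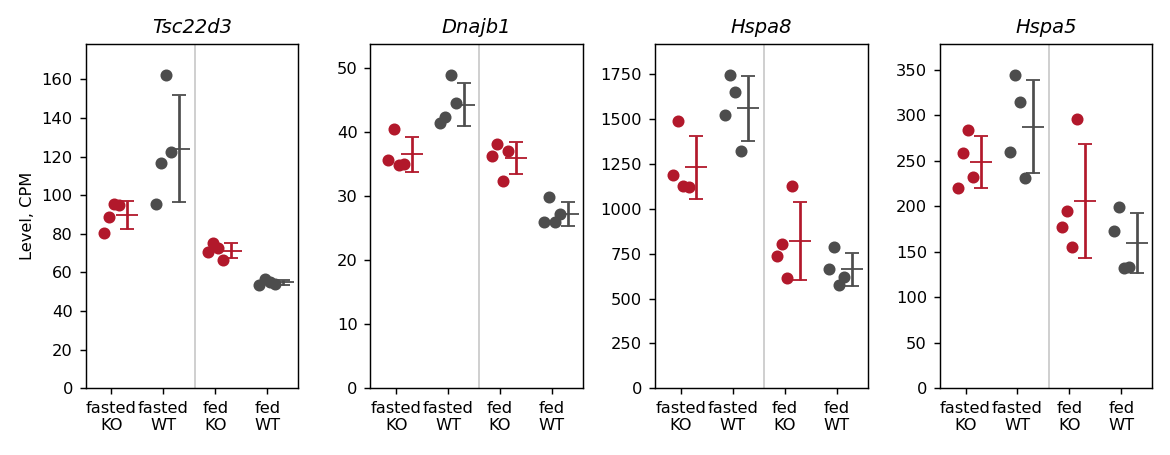
Level in CPM (linear axis from 0) of Tsc22d3, Dnajb1, Hspa8 and Hspa5 in each E5 library, KO left of WT, with the fasted pair left of the fed pair, with the mean and SD of each group. For Tsc22d3 and Dnajb1 the fasted KO means, 89.8 and 36.6 CPM, lie below the fasted WT means, 124 and 44.3 CPM, while all fed KO libraries lie above the fed WT libraries; fed and fasted libraries were normalized separately and carry different batch labels.

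Of the heat shock genes 21 of 23 were positive in fed mice, with a median of 0.22, and of the endoplasmic reticulum stress genes 23 of 24, with a median of 0.19. One fed library carried part of this. Fed KO 4 had 1126 CPM of Hspa8 and 296 CPM of Hspa5, against 616 to 801 CPM and 156 to 195.4 CPM in the other fed KO libraries and 577 to 788 CPM and 132 to 199.9 CPM in fed WT. Without fed KO 4 the heat shock median was 0.09 (19 of 23 positive), the endoplasmic reticulum stress median 0.11 (20 of 24) and the fed difference of Hspa8 0.12. Without it the fed differences of Dnajb1 and Tsc22d3 were 0.39 and 0.42, and the fasted minus fed difference was called for 0 genes; leaving it out was chosen after seeing the data. The ribosomal protein list turned with the same library: its fed median was 0.03 with 45 of 72 positive, and -0.15 with 0 of 72 positive without fed KO 4. The sums of that list in fed mice were 3138, 3323, 2604 and 4751 CPM in KO and 3603, 3897, 2989 and 3063 CPM in WT. The glucocorticoid and fasting list had a fed median of 0.08 with 14 of 20 positive, and 0.20 with 16 of 20 without fed KO 4. Of the genes called by DESeq2 in fasted mice, Rps27, Rps28, Rpl37 and Rps29 had fed differences of 0.01, 0.04, -0.03 and -0.14, where no ribosomal protein gene was positive without fed KO 4. Hcn2, Plekhh1 and Cntn2 had fed differences of -0.03, 0.04 and 0.05, Atpif1 one of -0.10 and Fos one of -0.25 ± 0.28. Cep76 was at 5.61, 6.87, 5.14 and 6.24 CPM in fed KO, against 6.001, 3.62, 4.51 and 5.21 CPM in fed WT, with 0.31 ± 0.17 and overlap. Its fasted minus fed difference was -0.90 ± 0.20, with an edgeR adjusted p of 0.797. Rnu2-10 did not pass the filter in fed mice.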

How the data were processed

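The deposited tables hold raw counts per Ensembl gene, whole numbers with no normalization by the authors; HISAT2, Bowtie2, edgeR and mm10 are named in the submitters' processing notes, and the counting tool, versions and strand setting are not given in the sources used here. Whether reads of a gene and its antisense partner were counted apart is therefore not known, nor how reads of nearly identical copies were assigned. RNA was purified on Qiagen RNeasy columns, per the labels. Every column of both E5 tables matched 1 library, so 0 were left over. Symbols, positions, transcript lengths and GC content came from GENCODE M21 (mm10), which matched 55141 of 55401 identifiers, and promoters from RefSeq (GRCm38.p6).

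The genotype effect was estimated by edgeR's quasi-likelihood test (edgeR version 4.0.16, R version 4.3.3) after TMM scaling and filterByExpr, whose minimum count was 10 and minimum total 15. P-values were adjusted by Benjamini-Hochberg over all genes kept, and a call needs an adjusted value under 0.05. DESeq2 1.42.0 ran on the same genes. Intervals are 95% and come from the edgeR fit. None of the 28 pairs of fasted libraries agreed within counting noise (chi-square per degree of freedom of 6.41 or more).

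The 39 gene lists, the tests and the rule for named genes were chosen with earlier results of these data known. Named are up to 12 genes per direction with the smallest edgeR p, among genes whose average log2 CPM reaches 1 and whose symbol is no predicted model; genes called by DESeq2; Fto, Rpgrip1l, Irx3, Irx5 and Irx6; defining genes of pituitary and choroid plexus; and up to 4 members of smallest p per direction of each list described, of which some are not reported here. Lists are described by counts and medians and were not tested. Alternatives were RLE scaling, no filter, DESeq2, a fit with the fed libraries, each library left out, the 3 libraries with other tissue left out, their marker genes left out, and trends on transcript length or GC content taken out.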

Additional observations from a re-analysis of the deposited data

Results flagged for a closer look

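In 26 of 214 groups of 4 fasted libraries, 1 library stood far from the other 3 by Dixon's test at the 95% level, of which chance gives about 5%. Most lie in the libraries with transcripts of other tissue. In KO 3 the pituitary list summed to 20626.8 CPM against 382 to 491 CPM in the other KO libraries, with Prl at 13729.5 CPM, Gh at 4934 CPM, Pomc at 1318 CPM and Cga at 84.5 CPM. In WT 3 it summed to 5233 CPM against 350.2 to 573 CPM in the other WT libraries, with Prl at 3206 CPM, Gh at 1297 CPM and Pomc at 338 CPM. In WT 1 the choroid plexus list summed to 4971 CPM against 239 to 285 CPM in the other WT libraries, with Ttr at 3069.8 CPM and Kl at 46.6 CPM. KO 2 had 8.38 CPM of Ttr against 0.722 to 1.40 CPM in the other KO libraries, and its choroid plexus list summed to 293 CPM against 256 to 258 CPM. KO 2 also had 44.9 CPM of the liver list against 1.90 to 2.87 CPM in the other KO libraries, and 29.9 CPM of Alb.

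Single genes apart from those lists were as follows. Pdk4 was at 15.03 CPM in KO 3 against 7.57 to 8.50 CPM in the other KO libraries, and Junb at 9.22 CPM in KO 3 against 6.94 to 7.14 CPM. KO 2 had 71.1 CPM of Btf3, a translation-associated factor, against 62.4 to 63.1 CPM in the other KO libraries, 40.6 CPM of Dnajb1 against 34.9 to 35.7 CPM, and 3.01 CPM of Adora2a, an adenosine receptor of striatal neurons, against 1.103 to 1.18 CPM. Irx5 was at 3.04 CPM in KO 4 against 3.26 to 3.27 CPM in the other KO libraries. Dusp5 was at 5.59 CPM in WT 1 against 1.66 to 2.04 CPM in the other WT libraries, and Mal at 114 CPM in WT 1 against 135 to 138 CPM. WT 2 had 39.8 CPM of Gal against 26.1 to 27.7 CPM in the other WT libraries, and 23.3 CPM of Foxj1 against 18.2 to 19.1 CPM.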

How the results depend on the processing

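The fasted count of genes called by edgeR was 0 under all alternatives run on it other than DESeq2, which called 21; with each library left out it ranged from 0 to 0. In fed mice DESeq2 called 1 gene, Tsc22d3, and with each fed library left out edgeR called 0 to 0. The fasted minus fed difference was called for 2 genes by DESeq2 and for 1 gene by edgeR without KO 3, WT 1 and WT 3. The median of the ribosomal protein list kept its sign under all alternatives, from -0.33 without WT 4 to -0.20 without WT 3. Of 1685 values of 94 named genes under the alternatives, 1652 kept their sign and stayed above the threshold, 11 passed it (all by DESeq2) and 22, in 10 genes, changed sign. The sign changes lie in genes of other tissues and in genes near 0. Without the pituitary libraries the estimates were -1.01 for Gh, -0.62 for Prl, -0.54 for Pomc, -2.145 for Cga and 0.053 for Cldn11. Without KO 3, WT 1 and WT 3 they were -1.37, -0.96, -0.74 and -1.97 for these hormone genes, 1.54 for Ttr, 0.054 for Clic6 and 0.0082 for Cldn11; without WT 1 alone Ttr was at 1.155. With each library left out, estimates ran from -4.12 to 4.92 for Gh, -5.23 to 6.67 for Prl, -2.51 to 3.69 for Pomc, -3.10 to 4.37 for Cga, -9.47 to 1.15 for Ttr, -0.063 to 0.39 for Irx6, -0.10 to 0.36 for Avp and -0.17 to 4.29 for Alb. The cause of these moves was not tested beyond the library left out.

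No paired analysis was possible because the numbers in the titles of fasted KO and WT libraries do not match. Fed libraries share numbers: under the replicate block the edgeR calls numbered 0, with 412 genes below 0.05 before adjustment. Deviations of same-numbered fed libraries correlated at 0.0961, -0.205, 0.598 and -0.385, and 2 of 8 libraries correlated best with their own number, so the numbers were not taken as pairs. With 4 libraries a group, p-values rest on few libraries.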
